A study of Citrus sinensis with 72 samples.

Results

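The albedo-enriched genes are 88 of the 30940 genes measured in the fruit of the ‘Fengjie 72-1’ navel orange (Citrus sinensis), and they were chosen by their measured levels in these libraries. For each gene the mean FPKM (fragment counts scaled by transcript length and by the depth of the library) of each tissue and stage was put on the log2(mean FPKM + 1) scale and averaged over the 6 stages of a tissue. A gene was taken when its albedo average lay at least 1 above that of each other tissue, which is a factor of 2, and when its highest group mean was between 10 and 3000 FPKM. The same rule gave 1195 genes for the epicarp, 161 for the juice sac and 50 for the segment membrane.

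The 72 libraries were from RNA of 4 hand-dissected tissues at 6 stages, and each of the 24 groups had 3 biological replicates. The albedo (AL) is the white inner peel, the epicarp (EP) the coloured outer peel, the segment membrane (SM) the wall around each segment, and the juice sac (JS) the vesicle that holds the juice. By the sample labels the stages were at day 50 (stage 1), 80 (stage 2), 120 (stage 3), 150 (stage 4), 180 (stage 5) and 220 (stage 6) after flowering. The study's methods give a slightly later day for stage 4. All groups share the cultivar, the rootstock and the orchard, and each replicate mixed fruits of 3 trees, so that a value is an average over trees. In such bulk samples, fewer cells of a type and less RNA per cell cannot be told apart. AL2 stands for the albedo at stage 2, and AL2_1 for its replicate 1.

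The albedo is a spongy parenchyma of loosely joined cells with large air spaces, and it carries the vascular bundles that supply the segments. It is rich in pectin, and it is the layer that thickens in the young fruit and is later stretched and thinned while the juice sacs swell. It lies between the oil-gland-bearing epicarp and the segment membranes, with which it is in contact on its inner side. The genes are given by the IDs of the table, because the table pairs no ID with a gene name and none of the 88 could be matched to the reference annotation. No function is therefore stated for any gene, and the albedo label could not be checked against named markers.

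**Figure D1:**
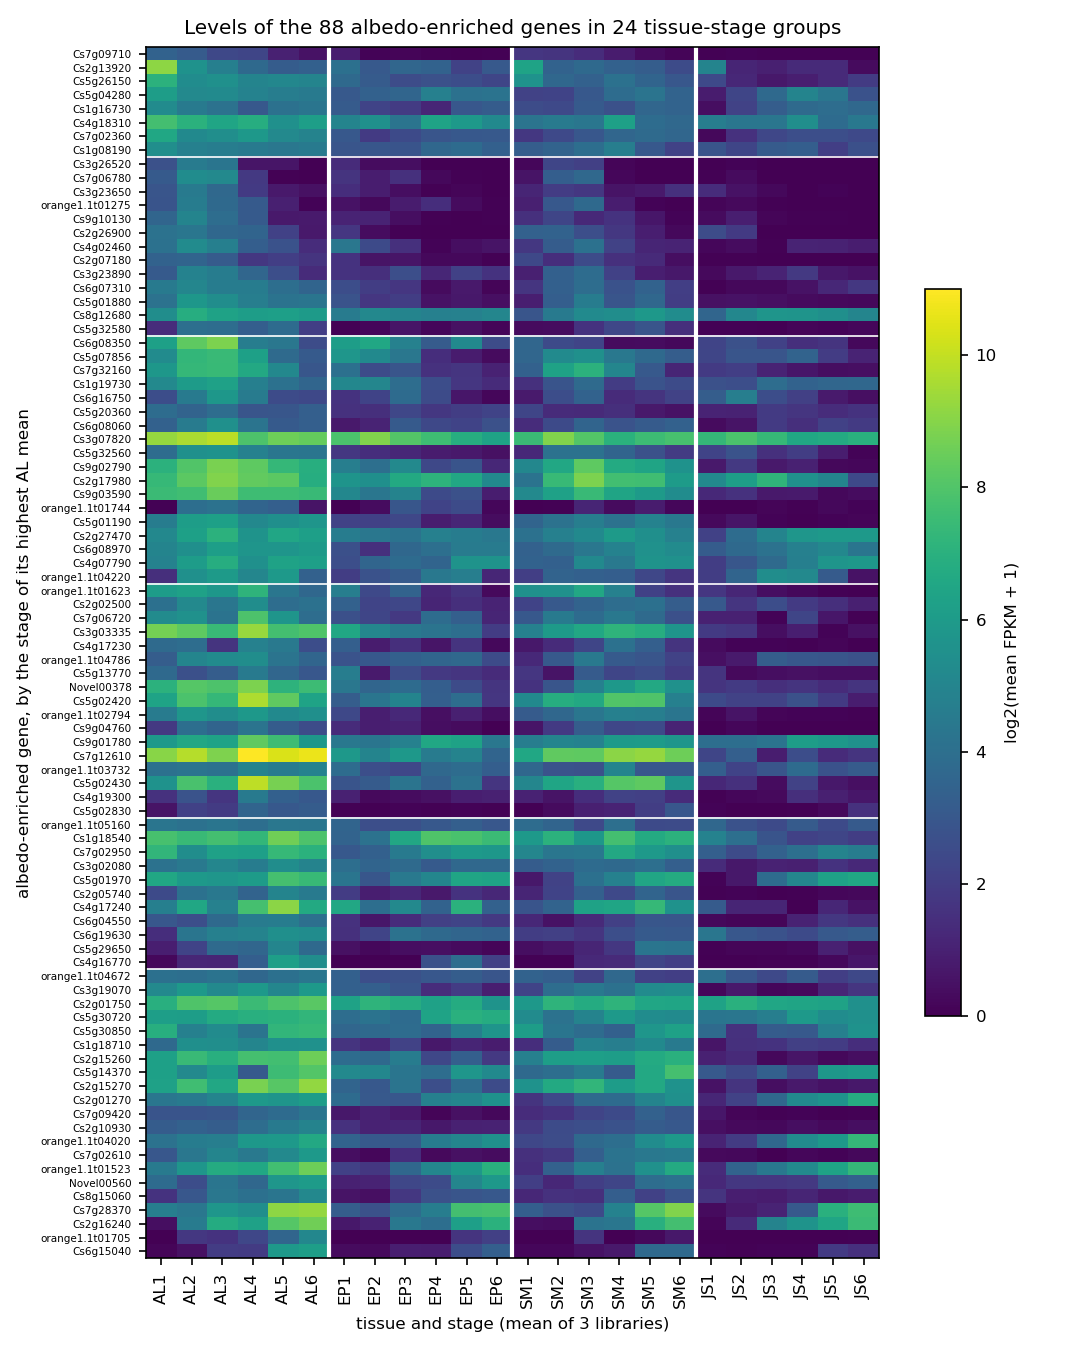
Level of each of the 88 albedo-enriched genes (down the page, grouped by the stage of the highest AL mean) in the 24 groups of tissue and stage (across), as log2(mean FPKM + 1) of 3 libraries. The AL columns are brightest by choice of the genes, SM is the next tissue for 65 of them, and the highest AL mean falls at stage 6 in 21 genes and at stage 1 in 8.

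The genes had IDs of every numbered chromosome. By their IDs, 17 lay on chromosome 5, 13 on chromosome 2, 10 on chromosome 7, 8 on chromosome 6, 7 each on chromosomes 3 and 4, 5 each on chromosomes 1 and 9, and 2 on chromosome 8. A further 12 had IDs of unplaced sequence and 2, Novel00378 and Novel00560, had IDs of another form. Their median length was 1186.5 bp (240 to 10501 bp), against 1699 bp for the 13322 genes with a highest group mean of at least 10 FPKM. The mean FPKM over the 18 AL libraries was 4.59 to 1143, with a median of 35.7, so that the list holds genes of low as well as very high level.

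Most of the genes were only moderately enriched. The gap between the AL average and that of the next tissue, which chose the genes, had a median of 1.27 on the log2 scale, lay under 1.5 for 68 genes and reached 2 (4-fold) for only 3. The next tissue was SM for 65 genes, EP for 15 and JS for 8. A further 339 genes passed the threshold against SM and JS but not EP, 257 passed against EP and JS but not SM, and 4 passed against EP and SM but not JS. Just inside the threshold were Cs5g30850 and Cs2g26900, both with a gap of 1.01 to SM. Just outside were Cs7g22090, with a gap of 0.9991 to EP, and Cs9g16990, with 0.9984 to JS.

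The enrichment was not equally present at each stage. The rule chose the genes from these same group means, averaged over stages, so that high counts for AL follow from the choice. AL had the highest mean of the 4 tissues at all 6 stages in 49 genes, at 5 stages in 30 and at 4 stages in 9. At stages 1 to 6 it was the highest tissue in 77, 87, 81, 77, 79 and 79 genes. In 84 genes the highest of the 24 group means was one of AL. The exceptions were Cs2g01270 (JS6, 109.7 FPKM), orange1.1t04020 (JS6, 159 FPKM), Cs5g13770 (EP1, 24.4 FPKM) and orange1.1t03732 (SM4, 30.3 FPKM), which are named because they fell outside the common pattern.

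The most abundant of the genes was Cs7g12610, with a mean of 1143 FPKM over the AL libraries. Its FPKM was 561, 519 and 481 in AL1, 1106, 763 and 767 in AL2, 268, 623 and 530 in AL3, 682, 3412 and 1947 in AL4, 1082, 1896 and 972 in AL5, and 1974, 1728 and 1268 in AL6. The libraries of AL4 differed most among themselves, and AL3_1 was the lowest of the 18. In EP the gene had 8.65 to 99.5 FPKM and in JS 0.254 to 14.0 FPKM. In SM it had 32.0 to 193 FPKM at stage 1 and 144 to 819 FPKM later, which was the level nearest to AL. Cs3g07820 came next, with a mean of 548 FPKM over the AL libraries, and was highest at AL3 (1155, 742 and 894 FPKM) and lowest at AL4 (282, 155 and 290 FPKM).

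The gene furthest above the other tissues was Novel00378, with a gap of 3.20 on the log2 scale. Its FPKM was 110, 134 and 160 in AL1 and 163, 234 and 155 in AL6, and 318, 426 and 629 at its highest, in AL4. In SM it had 1.66 to 2.70 FPKM at stage 1 and 86.1 to 110 FPKM at stage 5, in EP 1.83 to 40.4 FPKM, and in JS 0.971 to 3.72 FPKM. AL and SM libraries of the same stage overlapped only at stage 5, where AL5 had 118, 106 and 192 FPKM. Cs7g02360 was second, with a gap of 2.49. It had 66.2, 95.8 and 117 FPKM in AL1 and 29.8, 30.2 and 28.9 FPKM in AL6, and at most 12.8 FPKM in EP, 16.2 FPKM in SM and 6.35 FPKM in JS.

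As a set, the 88 genes took a small part of the transcriptome. They made up 0.862% ± 0.017 of the summed FPKM in AL1 and 1.48% ± 0.38 in AL4 (SD, n = 3 each), with AL6 at 1.23% ± 0.089. The share was 0.208% to 0.316% in EP over the stages. In SM it was 0.200% ± 0.063 at stage 1, 0.538% ± 0.089 at stage 5 and 0.414% ± 0.075 at stage 6. In JS it was lowest, with 0.0862% ± 0.015 at stage 1 and 0.204% ± 0.011 at stage 6.

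**Figure D2:**
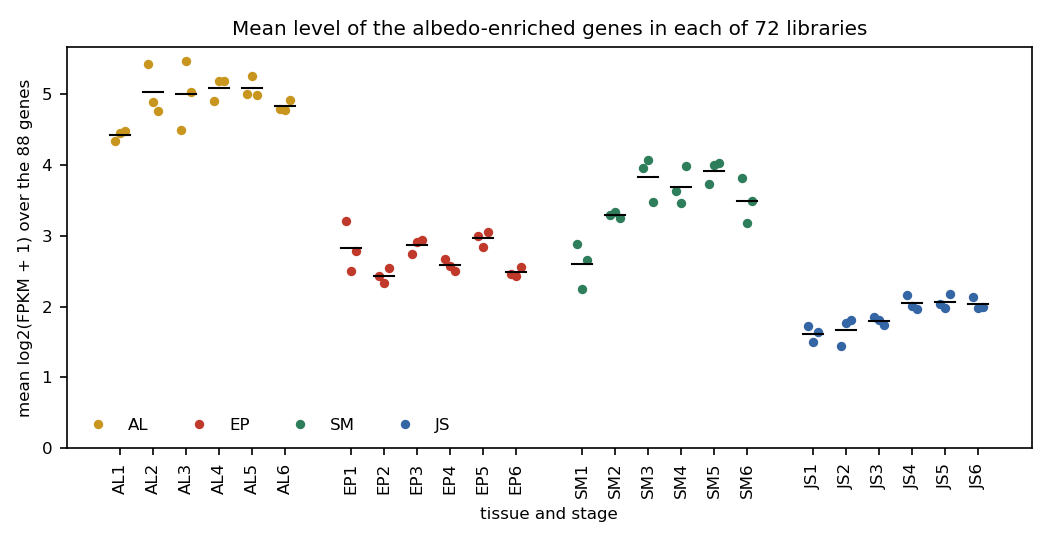
Mean log2(FPKM + 1) over the 88 genes in each of the 72 libraries (points, 3 for each tissue and stage) with the mean of the 3 (bar). AL lies above the other tissues by choice of the genes, AL2_1 (5.42) and AL3_1 (4.49) lie away from their own replicates, and SM is at 2.59 at stage 1 and 3.92 at stage 5.

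Several libraries stood apart before any comparison was made. Over all genes, AL2_1 correlated best with AL4_1 (Pearson r = 0.977) and only at 0.934 and 0.946 with its own replicates, and AL3_1 correlated best with AL2_2 (r = 0.963, against 0.927 and 0.950 with its own). The mean log2(FPKM + 1) of the 88 genes was 5.42, 4.88 and 4.76 in the libraries of AL2 and 4.49, 5.46 and 5.02 in those of AL3. Other AL libraries were closest to one of their own group. At stage 1 the genes were also higher in EP1_1 (3.20) than in EP1_2 and EP1_3 (2.50 and 2.78), in SM1_1 (2.88) than in SM1_2 and SM1_3 (2.24 and 2.66), and in JS1_1 (1.72) than in JS1_2 and JS1_3 (1.497 and 1.634), while AL1_1 (4.34) was the lowest of AL1 (4.45 and 4.47 in the others). The depth of the AL libraries, from the fragments behind the FPKM values, was 16450997 to 22596979 (median 18862732), and 15365221 to 25424354 over all 72 libraries.

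Genes enriched in the other tissues by the same rule were followed in the AL libraries as a description. The epicarp-enriched genes made up 6.35% ± 0.88 of the summed FPKM in AL1, between 1.77% and 2.38% in AL2 to AL5, and 1.47% ± 0.17 in AL6, against 7.60% to 13.6% in EP itself. The segment membrane-enriched genes fell in share from stage to stage in AL, with 0.236% at AL1 and 0.0519% at AL6, and the juice sac-enriched genes had 0.224% at AL1 and 0.701% at AL6. The same moves were seen in tissues outside AL. The epicarp-enriched genes had 5.73% in SM1 and 1.04% in SM6, and 3.84% in JS1 and 1.28% in JS6. The segment membrane-enriched genes had 0.146% in EP1 and 0.0276% in EP6, and 0.403% in JS1 and 0.0503% in JS6. The juice sac-enriched genes had 0.229% in EP1 and 0.675% in EP6, and 0.434% in SM1 and 1.06% in SM6. How much of a neighbouring layer the AL libraries held was not tested, nor was the part of these shares in the stage comparisons.

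The levels of the genes varied over the development of the albedo itself. The ratio of the highest to the lowest AL stage mean (on FPKM + 1) had a median of 5.28 and ran from 1.31 to 297, and it was at least 4 in 53 of the 88 genes. Among the 13322 genes with a highest group mean of at least 10 FPKM, the median was 2.46 and 27.1% reached 4. The 88 genes were chosen for a high AL level, and those 13322 were not. The AL mean was lowest at stage 1 in 38 genes and at stage 6 in 24. The highest stage was more evenly spread, with 8, 13, 18, 17, 11 and 21 genes at stages 1 to 6. The flattest gene was orange1.1t05160 (ratio 1.31) and the steepest Cs2g16240 (ratio 297).

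Stage comparisons within AL were tested with limma on log2(FPKM + 1), each on its own 6 libraries, with Benjamini-Hochberg adjustment over all genes tested and an adjusted p under 0.05. A difference between AL stages is not the difference between tissues that chose the genes. The pseudocount of 1 makes a log2 difference understate the change of a gene with few FPKM. All counts are read against the share of all tested genes called in the same comparison.

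**Figure D3:**
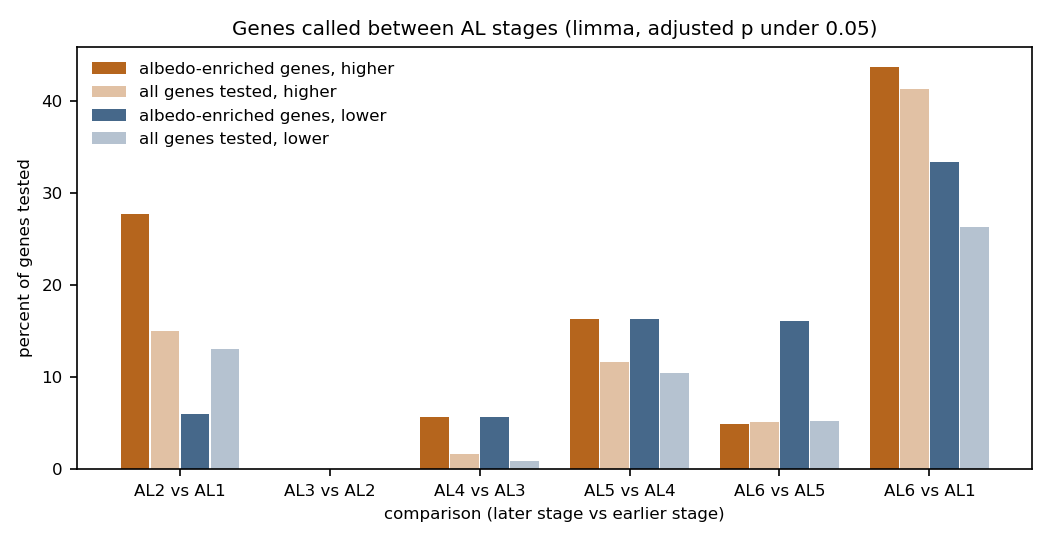
Percent of the albedo-enriched genes (dark bars) and of all tested genes (pale bars) called higher (brown) or lower (blue) in the later AL stage, by limma with an adjusted p under 0.05. AL2 vs AL1 has the albedo-enriched genes mostly higher (27.7% against 6.02% lower), AL3 vs AL2 has no call, and AL6 vs AL5 has 16.0% of them lower and 4.94% higher.

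From 50 to 80 days after flowering, the albedo-enriched genes that changed were mostly higher. Of 83 tested, 23 were higher and 5 lower in AL2 than in AL1, which is 33.7% called, against 28.0% of all 16158 genes tested (15.0% higher and 13.0% lower). The median log2 difference was 0.73 over the albedo-enriched genes and 0.16 over all genes tested. The largest rise by the rule for named genes was that of orange1.1t04220, with 20.8, 65.3 and 49.5 FPKM in AL2 against 0.804, 3.62 and 0.971 FPKM in AL1. The groups did not overlap, as that rule requires, and the log2 difference was 4.04 ± 0.52 (SE, limma adjusted p = 0.0035). Cs6g19630 had 25.7, 8.02 and 21.1 FPKM in AL2 against 1.14, 2.17 and 1.81 FPKM in AL1, which is 2.71 ± 0.43 on the log2 scale (limma adjusted p = 0.00626). It kept AL levels of 23.6 FPKM or more in all libraries of AL4, AL5 and AL6.

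Cs2g13920 fell most in this interval. It had 42.8, 65.8 and 35.4 FPKM in AL2 against 667, 537 and 499 FPKM in AL1, a log2 difference of -3.57 ± 0.28 (limma adjusted p = 0.00121). By AL6 it had 10.2, 8.33 and 9.47 FPKM. Its SM libraries were also highest at stage 1, with 77.1, 73.2 and 95.0 FPKM. Cs7g02950 had 60.5, 53.8 and 10.5 FPKM in AL2 against 176, 118 and 153 FPKM in AL1 (-2.13 ± 0.62, limma adjusted p = 0.0411). This call was lost without AL1_1, AL1_2 or AL1_3 (limma adjusted p = 0.135, 0.0951 and 0.12), and also with no filter on low values (0.0669) and in limma-voom (0.05). The count of 28 genes called was 12, 10 and 11 without AL1_1, AL1_2 and AL1_3, which leaves that group with 2 libraries. Of all genes tested, 11.3%, 10.3% and 9.55% were called in these fits. Without AL2_1, 30 genes were higher and 10 lower, where 37.6% of all genes were called. Without AL2_2 15 were higher, against 8.79% of all genes, and without AL2_3 3 were lower, against 9.7%.

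Between AL3 and AL2 none of the 87 genes tested was called, and 0% of all 15541 genes were. At an unadjusted p under 0.05, 5 of the 87 and 192 of all genes passed in limma, and limma-voom on the recovered fragments also called 0. Both libraries that correlated best with another group are in this comparison. Without AL2_1 and AL3_1, 8 of the albedo-enriched genes were higher and 5 lower in AL3, where 1.19% and 1.70% of all 14682 genes tested were. Cs2g16240 shows how far the libraries were apart, with 0.239, 212 and 115 FPKM in AL3 against 59.8, 1.85 and 5.98 FPKM in AL2. The single low library of AL3 and the single high library of AL2 were those 2.

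From AL3 to AL4 the calls were few but denser among the albedo-enriched genes. Of 88 tested, 5 were higher and 5 lower in AL4, which is 11.4% called, against 2.53% of all 15490 genes (1.68% higher and 0.846% lower). Cs7g06720 had 337, 263 and 118 FPKM in AL4 against 22.1, 16.8 and 13.1 FPKM in AL3 (3.62 ± 0.41 on the log2 scale, limma adjusted p = 0.0102). The rise was brief, for the gene was called lower in both later intervals and stood at 11.4, 15.3 and 16.7 FPKM in AL6. Cs4g17230 had 31.8, 39.3 and 12.7 FPKM in AL4 against 0.985, 4.85 and 0.718 FPKM in AL3 (3.28 ± 0.57, limma adjusted p = 0.029).

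Cs7g06780 and Cs5g14370 went the other way. Cs7g06780 had 3.81, 0.764 and 3.07 FPKM in AL4 against 72.0, 19.8 and 12.8 FPKM in AL3 (-3.08 ± 0.64, limma adjusted p = 0.048), and by AL5 and AL6 it was at 0.0681 FPKM or lower. Cs5g14370 had 9.70, 5.63 and 7.40 FPKM in AL4 against 27.4, 55.6 and 116 FPKM in AL3 (-2.77 ± 0.49, limma adjusted p = 0.0303). The groups did not overlap in these 4 genes, as the rule for named genes requires.

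The calls of this interval rested on single libraries. The count of 10 was 0 without AL4_1, without AL4_2 and without AL3_3, 3 without AL4_3 and 16 without AL3_1. In the same order, 0%, 0%, 0.0131%, 1.16% and 6.08% of all genes tested were called. Without AL3_2 the count was 8, of which 1 was lower, where 2.08% of all genes were called and 0.613% were lower. The call of Cs7g06720 was lost without AL4_1, AL4_2 or AL3_3 (limma adjusted p = 0.0703, 0.094 and 0.0627), and that of Cs4g17230 without the same libraries (0.152, 0.179 and 0.126). Cs5g14370 lost its call without AL4_1, AL4_2, AL4_3, AL3_2 or AL3_3 (0.119, 0.18, 0.0786, 0.052 and 0.099), and Cs7g06780 without the same 5 (0.151, 0.217, 0.0953, 0.0707 and 0.0899). With no filter on low values, Cs4g17230, Cs5g14370 and Cs7g06780 lost their calls (limma adjusted p = 0.0745, 0.0753 and 0.106). Cs7g06780 also lost it with a pseudocount of 0.1 (0.055), after division by median ratios (0.0569) and in limma-voom (0.0726). All 4 kept their direction in these fits.

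From AL4 to AL5, which is the colouring stage, as many of the genes rose as fell. Of 86 tested, 14 were higher and 14 lower in AL5, which is 32.6% called, against 22.0% of all 15631 genes (11.6% higher and 10.4% lower). Cs5g14370 returned from its low at stage 4, with 237, 153 and 171 FPKM in AL5 against 9.70, 5.63 and 7.40 FPKM in AL4 (4.46 ± 0.24 on the log2 scale, limma adjusted p = 7.87e-05). Cs6g15040 had 67.3, 55.2 and 54.9 FPKM in AL5 against 1.04, 2.11 and 5.08 FPKM in AL4 (4.15 ± 0.37, limma adjusted p = 0.000304). Both were far outside the range of their AL4 libraries, and both stayed high in AL6.

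Of the genes that fell, orange1.1t01623 had 17.4, 35.0 and 4.74 FPKM in AL5 against 98.1, 245 and 82.4 FPKM in AL4 (-3.02 ± 0.64, limma adjusted p = 0.0114). Cs5g07856 had 6.76, 18.95 and 13.4 FPKM in AL5 against 125, 44.4 and 56.7 FPKM in AL4 (-2.41 ± 0.44, limma adjusted p = 0.00602). Neither pair of groups overlapped, as the rule for named genes requires, and in AL6 the genes had 10.3 to 14.2 and 5.84 to 10.9 FPKM. Without AL5_1 the count of 28 was 18, with 8 lower, where 8.93% of all genes were called and 4.45% were lower.

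From AL5 to AL6, at full ripening, more of the genes were called lower than higher, by a margin that depended on AL5_2. Of 81 tested, 4 were higher and 13 lower in AL6, which is 21.0% called, against 10.3% of all 15447 genes (5.10% higher and 5.19% lower). The median log2 difference was -0.10 over the albedo-enriched genes and 0.07 over all genes tested. Without AL5_2, 7 were higher and 9 lower, where 2.84% and 3.14% of all genes were, and the median of the albedo-enriched genes was 0.02. Cs5g02420 had 80.8, 77.6 and 90.4 FPKM in AL6 against 332, 278 and 330 FPKM in AL5 (-1.90 ± 0.13 on the log2 scale, limma adjusted p = 0.00126). The replicates of this gene were close to each other at both stages, and its call was kept without each library in turn. Cs7g32160 had 5.56, 8.79 and 5.86 FPKM in AL6 against 20.9, 64.4 and 15.9 FPKM in AL5 (-1.93 ± 0.46, limma adjusted p = 0.0395). Its call was lost without AL6_1, AL6_2, AL6_3 or AL5_1 (limma adjusted p = 0.142, 0.0709, 0.0916 and 0.0894), with no filter on low values (0.0716) and in limma-voom (0.0609).

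The rises of this interval were smaller. Cs2g15270 had 585, 462 and 751 FPKM in AL6 against 260, 353 and 233 FPKM in AL5 (1.08 ± 0.22, limma adjusted p = 0.0255), and orange1.1t01523 had 418, 365 and 354 FPKM in AL6 against 258, 190 and 162 FPKM in AL5 (0.92 ± 0.18, limma adjusted p = 0.0241). Neither pair of groups overlapped, as the rule for named genes requires. The call of Cs2g15270 was lost without AL6_1, AL5_1 or AL5_3 (limma adjusted p = 0.0868, 0.0996 and 0.0685). That of orange1.1t01523 was lost without AL6_1, AL6_2, AL5_2 or AL5_3 (limma adjusted p = 0.0879, 0.0663, 0.0597 and 0.0543). In a single fit of all 24 groups neither was called (limma adjusted p = 0.442 for Cs2g15270 and 0.264 for orange1.1t01523). The count of 17 was 8 without AL6_1 (1 higher and 7 lower), 9 without AL6_2 and 9 without AL5_1 (2 higher and 7 lower in each), and without AL5_3 2 were higher. Of all genes, 2.69%, 4.04% and 2.88% were called without AL6_1, AL6_2 and AL5_1, and 2.77% were higher without AL5_3.

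**Figure D4:**
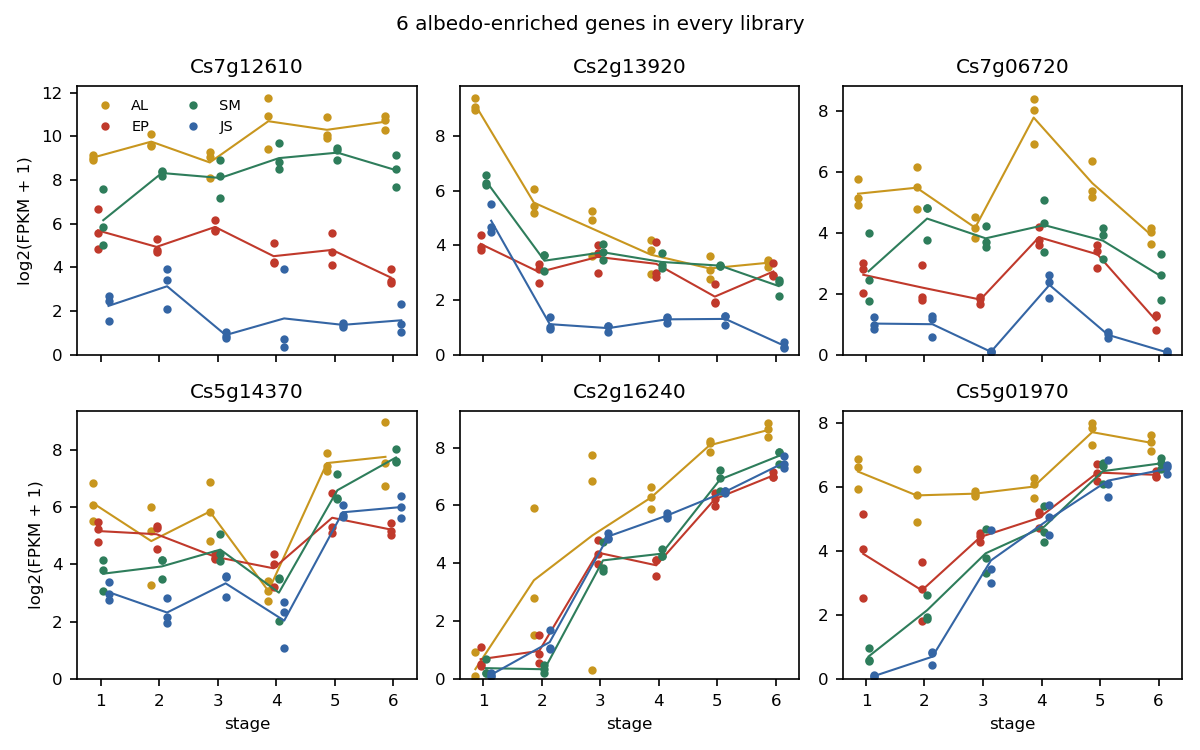
log2(FPKM + 1) of 6 albedo-enriched genes in every library (points) with the mean of 3 libraries (lines), by stage and tissue. Cs7g06720 is highest at AL4 (118 to 337 FPKM), Cs5g14370 is lowest at AL4 (5.63 to 9.70 FPKM), Cs2g13920 is highest at AL1 (499 to 667 FPKM), and Cs2g16240 is high late in every tissue.

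Over the whole of development, 67 of 87 genes tested differed between AL6 and AL1, 38 higher and 29 lower. This is 77.0% called, against 67.6% of all 16574 genes (41.3% higher and 26.3% lower). The median log2 difference was 0.41 over the albedo-enriched genes and 0.28 over all genes. After division of the libraries by their median ratios the medians were 0.14 and 0.02, with 32 of the albedo-enriched genes higher and 30 lower, where 30.1% of all genes were higher and 32.2% lower. Cs2g16240 rose most, with 395, 325 and 456 FPKM in AL6 against 0.891, 0 and 0.0815 FPKM in AL1 (8.26 ± 0.26 on the log2(FPKM + 1) scale, limma adjusted p = 2.66e-07). Cs6g15040 had 71.5, 64.4 and 75.1 FPKM in AL6 against 0.328, 0 and 0.0367 FPKM in AL1 (6.0 ± 0.17, limma adjusted p = 1.77e-07). In AL1 both were at or near 0, so that the size of these differences depends on the pseudocount.

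The largest falls were those of Cs2g13920 and Cs6g08350. Cs2g13920 had 10.2, 8.33 and 9.47 FPKM in AL6 against 667, 537 and 499 FPKM in AL1 (-5.78 ± 0.16, limma adjusted p = 1.76e-07). Cs6g08350 had 7.39, 4.499 and 2.51 FPKM in AL6 against 85.7, 84.5 and 56.8 FPKM in AL1 (-3.79 ± 0.32, limma adjusted p = 2.94e-05). Its course between was uneven, with 46.6, 443 and 441 FPKM in AL2 and 1184, 119 and 49.7 FPKM in AL3, where AL2_1 and AL3_1 were again the libraries unlike their replicates.

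The calls of single genes were scattered over the intervals. Of the 88 genes, 28 were called in none of the 5 consecutive comparisons, 39 in 1, 19 in 2 and 2 in 3. In 7 genes neither these nor AL6 vs AL1 gave a call. None of these counts was made over all genes tested, so they describe the 88 genes only. The most abundant of the 7 were Cs9g02790 and Cs9g03590. Cs9g02790 had 143, 115 and 99.3 FPKM in AL6 against 124, 98.2 and 175 FPKM in AL1, with 37.3, 924 and 346 FPKM in AL3. Cs9g03590 had 200.3, 178 and 148 FPKM in AL6 against 199, 139 and 196 FPKM in AL1, with 20.9, 811 and 230 FPKM in AL3. In both the AL3 libraries differed more among themselves than the ends of development did, and AL3_1 was the lowest AL library of both.

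In 3 cases albedo-enriched genes were direct neighbours in the order of the IDs. Cs5g02420 and Cs5g02430, on chromosome 5, had AL stage means of 81.3, 232, 161, 790, 313 and 83.0 FPKM and of 47.5, 226, 126, 951, 423 and 236 FPKM at stages 1 to 6, and their log2 values had r = 0.81 over the 18 AL libraries. Cs2g15260 and Cs2g15270, on chromosome 2, had r = 0.89, and Cs4g17230 and Cs4g17240, on chromosome 4, r = 0.72. These correlations share the libraries, their stages and their depth and carry no test. Whether reads were shared between such neighbours could not be checked from FPKM values. The members of each pair differed in length (789 and 886 bp, 733 and 819 bp, and 647 and 240 bp).

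Whether the change over development was particular to the albedo was tested for each other tissue, as the difference between the AL6 vs AL1 change and the stage 6 vs stage 1 change of that tissue. The limma fit used all 72 libraries in 24 groups, and this difference does not use the averages over stages that chose the genes. The limit of at least 10 FPKM on the highest group mean, which can be AL1 or AL6, still bears on it. The 3 differences share the AL libraries. The 4 tissues of a stage and replicate were dissected from the same mixed fruits, so that they are not independent as the fit takes them to be. In EP the median change of the 88 genes from the group means was -0.54 on the log2 scale, in SM 0.86, in JS -0.06 and in AL 0.40. The medians of the genes with a highest group mean of at least 10 FPKM were -0.14 in EP, -0.21 in SM, -0.18 in JS and 0.22 in AL. A total of 63 of the 88 genes had a higher mean in SM6 than in SM1, and 33 a higher mean in EP6 than in EP1. Signs were not counted over all genes.

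**Figure D5:**
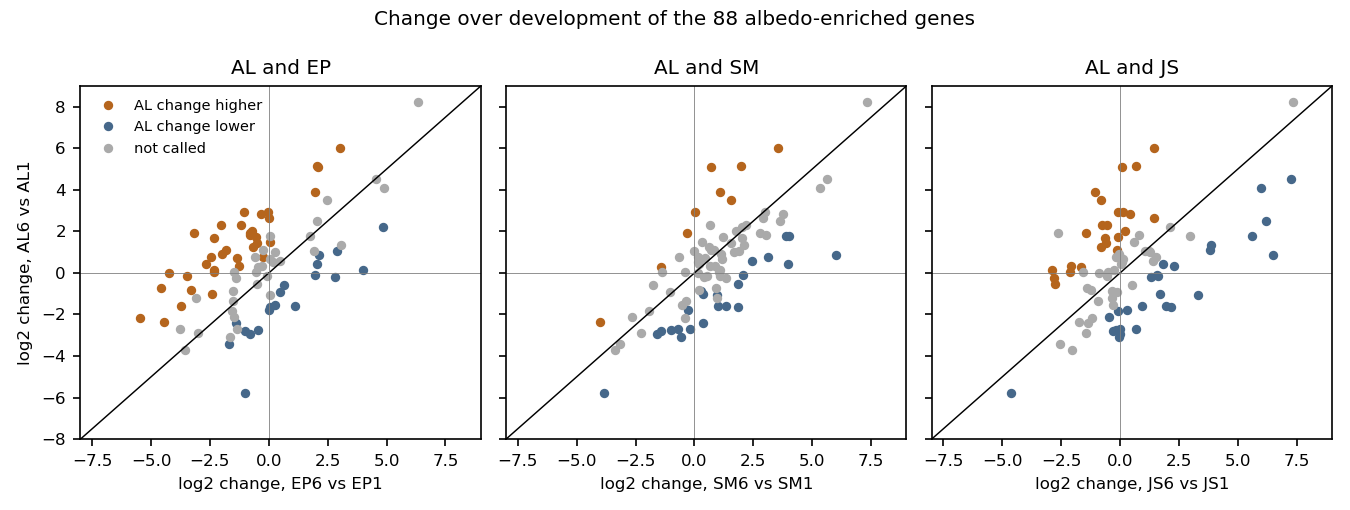
Log2 change of each of the 88 genes in AL (AL6 vs AL1, up the page) against its change in EP, SM or JS (stage 6 vs stage 1, across), both from group means on the log2(mean FPKM + 1) scale, with the line of equal change. Genes called for a larger (brown) or smaller (blue) change in AL number 36 and 19 against EP, 9 and 23 against SM, and 25 and 27 against JS.

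Against EP, the albedo-enriched genes more often had the higher change in AL. Of 88 tested, 36 had a higher and 19 a lower change, against 44.1% of all 20077 genes called (31.2% higher and 12.8% lower). The median difference was 0.98 over the 88 genes and 0.42 over all genes tested. In 30 of the 36 genes the EP change was below 0, a sign that was not counted over all genes. After the same division by median ratios, 29 were higher and 24 lower, where 15.2% and 18.5% of all genes were. The median of the 88 genes was then 0.48, and the median of all genes was 0.02. Without replicate 1 of every group, 33 were higher and 19 lower, where 27.2% and 11.3% of all genes were, and the median of the 88 genes was 0.76. Without replicate 2 or replicate 3, 11 and 12 genes were lower, where 10.2% and 9.89% of all genes were.

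Cs2g15260 had 396, 351 and 389 FPKM in AL6 against 72.9, 60.7 and 93.3 FPKM in AL1, while in EP it had 1.75, 1.83 and 4.22 FPKM at stage 6 against 25.1, 8.44 and 7.33 FPKM at stage 1. Its AL6 libraries thus lay above those of AL1 and its EP6 libraries below those of EP1, and the difference was 4.22 ± 0.75 (limma adjusted p = 8e-06). Cs4g17240 had 16.8, 233 and 58.7 FPKM in AL6 against 32.2, 31.4 and 14.5 FPKM in AL1, and in EP 10.7, 10.3 and 8.39 FPKM at stage 6 against 183, 38.3 and 66.8 FPKM at stage 1 (4.17 ± 1.71, limma adjusted p = 0.0425). The AL6 and AL1 libraries of this gene overlapped, and the call was lost without replicate 2 or replicate 3 (limma adjusted p = 0.166 and 0.165), with a pseudocount of 0.1 (0.0902), with no filter (0.0553) and after division by median ratios (0.089).

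The genes with the lower change in AL included Cs2g13920, whose fall in AL is given above. In EP it had 6.56, 6.31 and 9.15 FPKM at stage 6 against 19.97, 14.4 and 13.2 FPKM at stage 1, and the difference was -4.77 ± 0.45 (limma adjusted p = 5.39e-13). Cs1g18540 was high in AL throughout, with 274, 231 and 222 FPKM in AL6 against 210, 155 and 294 FPKM in AL1. In EP it had 173, 170 and 202 FPKM at stage 6 against 6.80, 16.5 and 8.01 FPKM at stage 1 (difference -3.91 ± 0.61, limma adjusted p = 6.05e-07). The EP levels of this gene at stage 6 thus came close to those of AL.

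Against SM, the order was the reverse. Of 88 tested, 9 had a higher and 23 a lower change in AL, against 35.6% of all 20077 genes called (27.9% higher and 7.63% lower). The median difference was -0.61 over the 88 genes and 0.39 over all genes tested. AL and SM moved the same way in 65 genes (46 up and 19 down, by the sign of the change), SM alone was above 0 in 17 and AL alone in 6. How often the signs were the same over all genes was not counted. After that division, 6 were higher and 35 lower, where 13.4% and 16% of all genes were. The medians were then -1.13 for the 88 genes and -0.01 for all genes. Without replicate 2 the 32 calls became 18 (5 higher and 13 lower), and without replicate 3 they became 21 (4 higher and 17 lower). Of all genes tested, 10.3% and 19.8% were called in these fits, against 35.6% with all replicates.

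Cs5g01970 had the lowest difference to SM. It had 140, 169 and 195 FPKM in AL6 against 60.0, 117 and 98.4 FPKM in AL1, and in SM 106, 93.8 and 120 FPKM at stage 6 against 0.980, 0.4996 and 0.464 FPKM at stage 1 (-5.13 ± 0.58, limma adjusted p = 6.04e-10). At stage 1 it was thus nearly absent from SM, and at stage 6 the SM libraries were just below those of AL. Cs7g02360 had 29.8, 30.2 and 28.9 FPKM in AL6 against 66.2, 95.8 and 117 FPKM in AL1, and in SM 11.51, 10.3 and 12.5 FPKM at stage 6 against 2.66, 2.40 and 2.20 FPKM at stage 1 (-3.44 ± 0.47, limma adjusted p = 6.73e-08). This gene fell in AL, and its SM libraries of stage 6 lay above those of stage 1.

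Among the 9 genes with a higher change in AL than in SM, the largest differences by the rule for named genes were those of orange1.1t01705 and Cs4g16770, both at or near 0 in the young fruit. For orange1.1t01705, all 3 libraries of AL1 are listed at 0, and AL6 had 9.18, 14.2 and 75.1 FPKM. In SM it had 1.505, 0 and 0.443 FPKM at stage 6 against 0, 0 and 0.045 FPKM at stage 1, and the difference of 3.91 ± 0.67 (limma adjusted p = 1.1e-05) depends on the pseudocount. Cs4g16770 had 33.4, 65.3 and 23.2 FPKM in AL6 against 0.175, 0.169 and 0.176 FPKM in AL1, and in SM 4.32, 0.929 and 3.94 FPKM at stage 6 against 0.0655, 0.0252 and 0.0468 FPKM at stage 1 (3.20 ± 0.64, limma adjusted p = 0.000111). With limma-voom on the recovered fragments this difference was 2.12 (limma-voom adjusted p = 0.334).

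Against JS, the balance of higher and lower changes depended on the scaling. Of 88 tested, 25 had a higher and 27 a lower change in AL, against 45.0% of all 20077 genes called (32.4% higher and 12.6% lower). The median difference was -0.10 over the 88 genes and 0.36 over all genes, and that of the 88 genes was 0.26 with a pseudocount of 0.1 and 0.31 in limma-voom. After division by median ratios, 20 were higher and 32 lower, where 18.5% and 21.9% of all genes were. The medians were then -0.60 for the 88 genes and -0.01 for all genes. In JS 25 of the genes had a mean under 1 FPKM at both stages, where log2(FPKM + 1) can hardly change. Without replicate 3, 15 were higher, where 24.5% of all genes were.

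Cs6g19630 had 39.1, 39.2 and 41.3 FPKM in AL6 against 1.14, 2.17 and 1.81 FPKM in AL1, and in JS 9.36, 6.81 and 9.27 FPKM at stage 6 against 25.2, 15.3 and 16.1 FPKM at stage 1. The gene was thus higher in JS than in AL in the youngest fruit, and the difference was 4.98 ± 0.60 (limma adjusted p = 9.33e-10). Cs6g15040, whose rise in AL is given above, had 1.79, 1.60 and 2.23 FPKM in JS6 against 0.0369, 0 and 0.149 FPKM in JS1 (difference 4.57 ± 0.49, limma adjusted p = 3.83e-11). Its late appearance was common to all tissues but much larger in AL.

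In the other direction, Cs5g01970 had 84.1, 96.7 and 101 FPKM in JS6 against 0.0654, 0.0451 and 0.0882 FPKM in JS1, and the difference was -5.57 ± 0.58 (limma adjusted p = 1.68e-11). By stage 6 the gene was at 77.9 FPKM or more in every library of all 4 tissues. Cs1g16730 had 19.5, 18.4 and 17.1 FPKM in AL6 against 35.7, 54.3 and 26.9 FPKM in AL1, and in JS 13.0, 10.5 and 13.3 FPKM at stage 6 against 0.495, 0.183 and 0.358 FPKM at stage 1 (-4.30 ± 0.60, limma adjusted p = 5.69e-08). Across the 3 differences, 6 genes had the higher change in AL against every other tissue and 9 the lower change. The same counts were not made over all genes tested. As the 3 differences share the AL libraries, such joint calls are not independent.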

How the data were processed

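RNA of 4 fruit tissues at 6 stages was sequenced in 72 libraries, 3 for each group. The authors discarded low-quality, adapter-bearing and ambiguous reads, mapped the rest to the C. sinensis genome with TopHat2 and deposited FPKM values per gene made with HTSeq 0.6.1. The submitters' processing notes also name Cufflinks. All columns were matched to samples by title. The authors' tests on counts were not used here.

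The members, lists and tests were chosen with earlier results of these data known. FPKM values step by single fragments, and these fragments were recovered for 27759 of 27759 genes above 0 (tolerance 0.0001 fragments) and gave the depth and the input of limma-voom. The recovery and the test were checked on simulated data. The test was limma 3.58.1 (R 4.3.3) with a robust, trended eBayes step on log2(FPKM + 1). A gene entered it when at least 1 FPKM was reached in at least 3 libraries compared, and was called at a Benjamini-Hochberg adjusted p under 0.05. The p-values measure the spread between replicates that each mixed fruits of 3 trees. The same trees were picked at all stages and the 4 tissues were dissected from the same fruits, so the libraries are not fully independent. Replicate numbers were not used as pairs, because deviations of same-numbered libraries did not all correlate above 0.1.

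Genes were named by rule: the 2 with the highest AL mean, the 2 with the largest gap, the 2 highest and 2 lowest called changes of each comparison (groups that do not overlap and a mean of at least 10 FPKM in the higher group for AL stages, a highest mean of at least 10 FPKM for differences between tissues), neighbours in ID order, and the 2 most abundant genes never called. The alternatives were a pseudocount of 0.1, no filter, division by the median ratio, the replicate number as a block, a single fit of 24 groups, limma-voom, leaving out each replicate, and leaving out AL2_1 and AL3_1. FPKM values do not show strand or reads shared between similar genes. Of the 30940 IDs, 0 matched the reference table, so that neither gene names nor sequences were used. Tables were made with pandas 2.3.3 and numpy 2.4.6, and figures with matplotlib 3.10.9, in Python 3.11.15.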

Additional observations from a re-analysis of the deposited data

Results flagged for a closer look

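The change over development differed between AL and another tissue in the following results, each by the test of the difference itself in limma. Between AL and EP, 55 of the 88 genes differed (62.5%, against 44.1% of all 20077 genes tested). The values were 4.22 on the log2 scale for Cs2g15260, 4.17 for Cs4g17240, -4.77 for Cs2g13920 and -3.91 for Cs1g18540. Between AL and SM, 32 genes differed (36.4%, which is near the 35.6% of all genes tested). The values were 3.91 for orange1.1t01705, 3.20 for Cs4g16770, -5.13 for Cs5g01970 and -3.44 for Cs7g02360. Between AL and JS, 52 genes differed (59.1%, against 45.0% of all genes tested). The values were 4.98 for Cs6g19630, 4.57 for Cs6g15040, -5.57 for Cs5g01970 and -4.30 for Cs1g16730. A positive value means a higher stage 6 vs stage 1 change in AL.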

How the results depend on the processing

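The number of albedo-enriched genes called depended on the setting in each consecutive AL comparison and in the AL minus SM change. Without a filter, 18 genes were called in AL2 vs AL1 and 2 in AL4 vs AL3, where 17.6% and 0.515% of all genes tested were. In a single fit of all 24 groups, 45 were called in AL2 vs AL1, 2 in AL3 vs AL2, 35 in AL4 vs AL3 and 10 in AL6 vs AL5. Of all genes tested, that fit called 44.3%, 0.797%, 22.7% and 4.35%. Without AL2_1 and AL3_1, 13 were called in AL3 vs AL2 and 16 in AL4 vs AL3, where 2.89% and 6.08% of all genes tested were. The cause of these shifts was not tested. Leaving out 1 library at a time gave 10 to 40 genes in AL2 vs AL1, 0 to 16 in AL4 vs AL3, 18 to 32 in AL5 vs AL4 and 8 to 16 in AL6 vs AL5, and leaving out 1 replicate number gave 18 to 36 in the AL minus SM change. In the same order, 9.55% to 37.6%, 0% to 6.08%, 8.93% to 24.6%, 2.69% to 9.38% and 10.3% to 39% of all genes tested were called. With the replicate number as a block, 19 genes were called in AL4 vs AL3, against 10 without it. Of all genes, 4.66% were called there, against 2.53% without it. The block gave 29, 35, 17 and 67 in AL2 vs AL1, AL5 vs AL4, AL6 vs AL5 and AL6 vs AL1, where 22.9%, 23.3%, 6.16% and 64.1% of all genes were called. It gave 55, 34 and 52 in the AL change minus that of EP, SM and JS, where 44.9%, 36.8% and 45.9% of all genes were called. The same-numbered deviations correlated at 0.35, 0.18 and 0.05 in AL4 vs AL3 and at -0.25, -0.22 and -0.20 in AL3 vs AL2. The rule itself gave 127 genes with a pseudocount of 0.1 (88 shared), 76 after division by the median ratio (69 shared), 98, 79 and 91 without replicates 1, 2 and 3 (79, 70 and 78 shared), 81 without AL2_1 and AL3_1 (76 shared), 109 without limits on the level and 106 with the median over stages (68 shared). Of 338 alternatives for 32 named results, 0 changed direction and 49 lost the call, in 10 results. A gene not called in one fit was in part called in another, so that the absence of a call does not show the absence of a change.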
